A study of Mus musculus with 74 samples.

Results

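Epithelium of the forestomach was compared with epithelium of the hindstomach in mouse embryos at E14. The comparison rests on 4 RNA-seq libraries, 2 of each region, chosen by the submitters' labels from a series of 74 samples, of which 31 are RNA-seq libraries. All 4 came from CD1 embryos of WT genotype with no labelled treatment, so the groups differ by region alone as far as the labels say. Per the labels' protocols, each region was digested with 0.25% trypsin for 30 minutes, cells positive for the epithelial surface protein Epcam were sorted by flow cytometry, and libraries were made with a SMARTer low-input kit and read as 75 bp single ends. The same regions labelled E12 and E16, with 2 WT CD1 libraries each, and 2 E14 small intestine libraries, whose cell type is labelled midgut, were set beside them. The p-values measure the spread within groups over 27 embryonic RNA libraries fitted together. These include WT small intestine at E18 and Cdx2-/- small intestine at E16 and E18. The labels do not say whether replicates came from separate embryos, litters or pools, so this spread may be technical.

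The stomach forms as a swelling of the foregut tube. In mice its proximal part, the forestomach, becomes a stratified squamous epithelium like that of the oesophagus, with a basal layer of keratin-rich cells attached to a basement membrane by hemidesmosomes. The distal part, the hindstomach, becomes a columnar epithelium that folds into glands and makes mucus, acid, digestive enzymes and hormones. Trp63, the master transcription factor of stratified epithelia, Sox2, a foregut transcription factor, and Gata4, an endodermal transcription factor required for glandular stomach, are among the best known regulators of this division. Signals that pass between epithelium and mesenchyme, among them hedgehog, Wnt, fibroblast growth factor (FGF), bone morphogenetic protein (BMP), Notch and retinoic acid, shape it as well.

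Total counts were 18075525 and 21615921 in the forestomach libraries and 21910062 and 20449108 in the hindstomach libraries, so a gene at 3 counts stood at 0.106 to 0.128 CPM (counts scaled to a common library size, with TMM factors). Replicates correlated across genes at a Spearman rho of 0.987 in forestomach and 0.994 in hindstomach. Epcam stood at 806 and 825 CPM in forestomach and at 752 and 737 in hindstomach, and the epithelial cadherin Cdh1 at 699 and 743 and at 673 and 691. The 10 general epithelial markers summed to 3913 and 4093 CPM in forestomach and 5026 and 5174 in hindstomach, and 2 of them, Krt18 and Ocln, were called higher in hindstomach. That is 20%, against 8.46% of all genes tested. Libraries of the other stages stood apart in ways that touch the comparisons with them. The E16 forestomach libraries held 5970227 and 6335340 counts, Epcam at only 137 and 112 CPM, and summed mesenchyme markers of 12600 and 15000 CPM, against 137 to 178 in the 4 E14 libraries. Those of E16 hindstomach had Epcam at 421 and 400 CPM, with summed mesenchyme markers of 6480 and 6940 CPM and muscle markers of 1850 and 1880. The libraries labelled E12 hindstomach had Gata4 at 0.369 and 0.569 CPM and the intestinal factor Cdx2 at 116 and 160, whereas those labelled E12 forestomach had Gata4 at 277 and 273 and the hindstomach factor Nkx6-2 at 149 and 158. These levels go against the regional labels at E12, and results that rest on them are given as of the libraries so labelled. The 4 Y-linked genes of the sex-linked list had 0 counts in all 4 E14 libraries, whereas 1 of them, Ddx3y, stood at 21 to 45.5 CPM in the stomach libraries labelled E12 and E16. The stages thus differ in Y-linked expression too, whose part in the comparisons between stages was not tested.

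Of 17239 genes tested, 1459 (8.46%) were called between the regions, 491 higher in forestomach (2.85%) and 968 higher in hindstomach (5.62%). A gene was called when its edgeR's adjusted p was under 0.05 and its log2 fold change, always forestomach minus hindstomach, was at least 1 in size. Each of the 4 libraries was also left out in turn, and counts and named genes whose call changed are given beside their results. The libraries of the regions did not overlap in CPM for 61.8% of all genes tested, so separation of 2 libraries from 2 is the usual state here and carries little on its own. The median log2 fold change was -0.03 over all genes, 2.31 over the genes higher in forestomach and -2.44 over those higher in hindstomach. Genes higher in hindstomach were the more numerous at each size of difference counted, with 607 against 288 at a log2 fold change of at least 2 in size, 103 against 81 at 5 and 22 against 9 at 8. The other region had 0 counts in both libraries for 18 of the forestomach genes and 60 of the hindstomach genes.

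**Figure D1:**
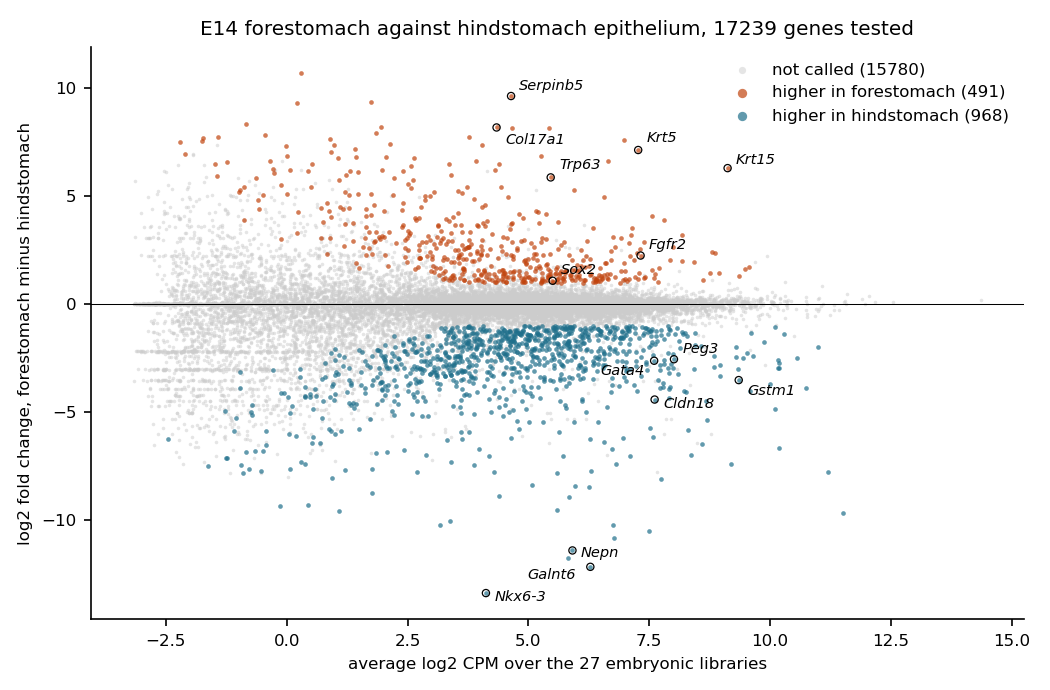
Log2 fold change (forestomach minus hindstomach) against average log2 CPM over the 27 embryonic libraries fitted together, 1 point per gene tested. Called genes are coloured, 491 higher in forestomach and 968 higher in hindstomach, and 14 genes are circled and named.

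Keratins and attachment genes of basal stratified cells were among those with the largest folds in forestomach. The serpin Serpinb5 (maspin), a marker of stratified and myoepithelial cells, stood at 67.3 and 58.2 CPM in forestomach against 0.0353 and 0.113 in hindstomach, which are 1 and 3 counts. Its log2 fold change was 9.65 (SE 1.03, edgeR's adjusted p 6.69e-06). Col17a1, the transmembrane collagen of hemidesmosomes, was at 141 and 149 CPM against 0.529 and 0.451, a log2 fold change of 8.19 (SE 0.80, edgeR's adjusted p 2.49e-06). The other 8 genes named by fold were the carbonyl reductase Cbr2, the organic cation exporter Slc47a1, the desmosomal plaque gene Pkp1, the ligand gene Wnt10a and the keratin genes Krt13, Krt6a, Krt5 and Krt14. Of these, 5 were near the floor in hindstomach, Slc47a1 at 0 counts in both libraries and at least 13.8-fold higher in forestomach, and Krt13, Wnt10a, Krt6a and Krt14 at 1 or 2 counts in all. Their ratios have wide counting intervals, 256 for Krt13 (95% interval 45.5 to 10200), 199 for Wnt10a (54.7 to 1650), 213 for Krt6a (37.8 to 8460) and 147 for Krt14 (26.0 to 5870). Krt6a has a near-identical copy beside it, so its share of their reads is uncertain. Wnt10a lost its call without hindstomach replicate 1 (edgeR's adjusted p 0.0667).

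By difference in CPM, which is not scaled by gene length, the keratin gene Krt15 led, at 1302 and 1369 CPM in forestomach and 16.7 and 16.9 in hindstomach. Next by difference in CPM came Igfbp2 and Igfbp5, secreted binders of insulin-like growth factors, the membrane-binding annexin Anxa1 and the FGF receptor gene Fgfr2. Igfbp2 was at 1580 and 1570 CPM against 307 and 305, and Igfbp5 at 1249 and 1333 against 402 and 400. The replicates lay close together, and both genes were present in both regions. Log2 fold changes were 2.36 for Igfbp2 (SE 0.18, edgeR's adjusted p 7.45e-08), 1.69 for Igfbp5 (SE 0.19, edgeR's adjusted p 4.24e-06) and 2.43 for Anxa1 (SE 0.27, edgeR's adjusted p 3.23e-06).

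Of the 10 genes with the largest fitted folds in hindstomach, 8 had 0 counts in both forestomach libraries, so their rank depends on the floor. The homeobox gene Nkx6-3, a factor of antral gland and endocrine cells, stood at 54.5 and 55.2 CPM in hindstomach and had 0 counts in both forestomach libraries, at least 463-fold lower (edgeR's adjusted p 4.44e-06). Galnt6, which starts mucin-type O-glycans, was at least 199-fold lower in forestomach, the membrane gene Ms4a8a at least 152-fold, Cdx2 at least 79.8-fold, the tetraspanin-like Tm4sf20 at least 62.8-fold, the chemokine gene Ccl20 at least 52.6-fold, the actin regulator Eps8l3 at least 52.1-fold and the mucosal scavenger receptor Dmbt1 at least 35.5-fold, each with 0 counts in both forestomach libraries. Nepn, the small leucine-rich proteoglycan nephrocan, was at 284 and 271 CPM in hindstomach with 0 and 5 counts in forestomach, a log2 fold change of -11.40 (SE 0.52, edgeR's adjusted p 1.7e-09). The proteoglycan gene Spock1 was at 67.1 and 64.0 CPM with 0 and 3 counts in forestomach, a ratio of 1120 (95% counting interval 381 to 5410). By difference in CPM the leaders were the imprinted zinc finger gene Peg3, the carboxypeptidase gene Cpa1, the glutathione transferase gene Gstm1, the corticosteroid-binding globulin gene Serpina6 and the simple keratin gene Krt18. Gstm1 was at 42.1 and 35.9 CPM in forestomach and 438 and 449 in hindstomach, a log2 fold change of -3.51 (SE 0.16, edgeR's adjusted p 7.97e-11), with the limit that Gstm genes are alike in sequence and reads may be split between them. Cpa1 lost its call without either forestomach library (edgeR's adjusted p 0.0858 without replicate 1 and 0.084 without replicate 2), and Krt18 fell just under the fold minimum with RLE scaling and with DESeq2, at -0.995 in both.

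**Figure D2:**
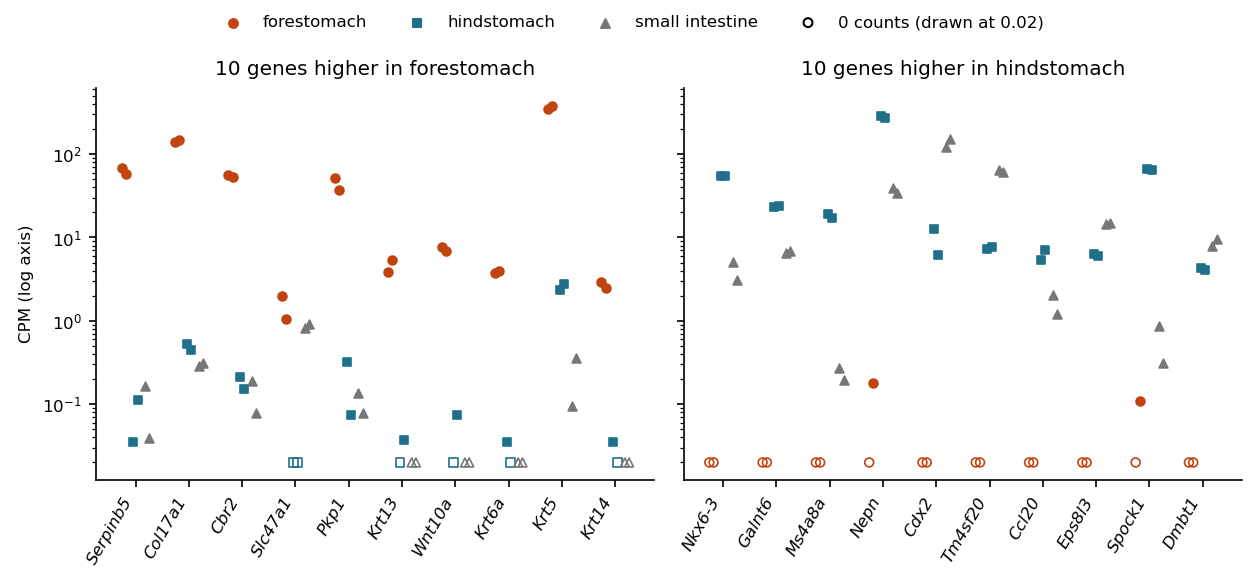
CPM at E14, on a log axis, of the 10 genes per direction with the largest fold, 1 point per library of forestomach, hindstomach and small intestine. Open points had 0 counts and are drawn at 0.02 CPM. Except for Slc47a1, at 0.817 and 0.907 CPM, the forestomach genes were at most 0.355 CPM in small intestine, while Cdx2, Tm4sf20, Eps8l3 and Dmbt1 were higher in small intestine than in hindstomach.

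Promoter windows of 4 called genes, chosen after their values were seen, are shown because each belongs to a gene that differs strongly between the regions and holds a match to a motif searched. They are the 250 bases before the RefSeq start in GRCm38.p6, on the gene's strand, with motif matches in capitals (TGANTCA for AP-1 or GCCNNNGGC for AP-2 in the forestomach genes, GTTAAT for HNF1, CAAAGNNCA for HNF4, AGATAA for GATA factors or TGTTTAC for FOX factors in the hindstomach genes, searched on both strands). Serpinb5 lies at chr1:106860925-106861174 on the plus strand and Krt13 at chr11:100120578-100120827 on the minus strand, for the downstream of its 2 listed starts. Nepn lies at chr10:52391358-52391607 on the plus strand. The tight junction gene Cldn18 lies at chr9:99717268-99717517 on the minus strand, for the upstream of its 2 listed starts.
Serpinb5: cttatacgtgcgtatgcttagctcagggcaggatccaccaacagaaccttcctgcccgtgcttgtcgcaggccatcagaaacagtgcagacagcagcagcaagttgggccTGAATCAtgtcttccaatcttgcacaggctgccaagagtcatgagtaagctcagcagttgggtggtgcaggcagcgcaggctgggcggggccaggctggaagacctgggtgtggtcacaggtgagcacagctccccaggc
Krt13: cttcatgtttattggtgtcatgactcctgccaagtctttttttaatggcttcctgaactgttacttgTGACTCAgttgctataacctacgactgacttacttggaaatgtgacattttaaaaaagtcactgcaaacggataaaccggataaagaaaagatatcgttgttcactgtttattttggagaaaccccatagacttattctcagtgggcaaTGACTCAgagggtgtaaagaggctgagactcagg
Nepn: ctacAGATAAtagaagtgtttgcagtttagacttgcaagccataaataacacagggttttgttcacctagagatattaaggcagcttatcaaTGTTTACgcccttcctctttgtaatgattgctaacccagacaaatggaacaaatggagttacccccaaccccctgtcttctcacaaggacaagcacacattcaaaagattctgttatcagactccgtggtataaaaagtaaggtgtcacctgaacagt
Cldn18: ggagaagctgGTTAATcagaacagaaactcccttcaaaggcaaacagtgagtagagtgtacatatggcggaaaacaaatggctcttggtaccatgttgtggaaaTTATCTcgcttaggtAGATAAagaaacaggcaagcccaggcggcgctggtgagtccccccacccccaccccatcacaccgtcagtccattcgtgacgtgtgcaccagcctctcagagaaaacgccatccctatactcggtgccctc
The Serpinb5 window held 1 match to the AP-1 letters, which allow any base in the middle, and the Krt13 window 2. The Serpinb5 match reads TGAATCA and those of Krt13 read TGACTCA. The window of the other Krt13 start, at chr11:100121567-100121816, held 1 match, also TGAATCA. The Nepn window held 1 GATA and 1 FOX match, and the Cldn18 window 1 HNF1 and 2 GATA matches. The window of the other Cldn18 start, at chr9:99710064-99710313, held 1 HNF4 match and 0 HNF1, GATA or FOX matches. Which start was used in these libraries was not tested. The AP-1 letters were in 8.66% of 462 windows of genes higher in forestomach, 7.23% of 927 windows of genes higher in hindstomach and 5.05% of 16017 windows of genes tested (6.75% of all 32851 windows). The HNF1 letters were in 4.76%, 7.34% and 4.64% in the same order (6.43% of all windows), the FOX letters in 1.95%, 3.88% and 2.31% (3.17%), the GATA letters in 6.28%, 7.44% and 6.78% (9.99%), the HNF4 letters in 3.68%, 4.96% and 4.92% (5.49%) and the AP-2 letters in 21.9%, 19.1% and 19.3% (13.7%). A match describes the letters in the window and says nothing of binding.

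Transcription factors of squamous and proximal foregut epithelium were higher in forestomach or not called. Of 22 tested, 9 were called higher in forestomach and 0 higher in hindstomach, 40.9% against the 8.46% called of all genes tested, with a median log2 fold change of 2.94. Trp63 stood at 455 and 458 CPM in forestomach and 7.55 and 7.93 in hindstomach, a log2 fold change of 5.88 (SE 0.62, edgeR's adjusted p 3.89e-06). Pitx1, a homeobox factor of hindlimb and oral epithelium, was at 620 and 476 CPM against 115 and 70.8 (2.56, SE 0.26, edgeR's adjusted p 8.99e-07). Irx5, an Iroquois factor, was at 52.4 and 55.0 against 6.84 and 7.22, and Grhl3, a factor of the epidermal barrier, at 176 and 194 against 24.4 and 23.3. Both were called (2.93 and 2.95).

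Sox2 was present in both regions and was not called. It stood at 190 and 153 CPM in forestomach and 92.3 and 68.2 in hindstomach, a log2 fold change of 1.09 (SE 0.41, edgeR's adjusted p 0.111). Sox2 was called when only the groups compared were fitted (1.12, edgeR's adjusted p 0.00432) and when the E12 libraries were left out (1.10, 0.0182). Its relative Sox21 was at 140 and 159 CPM against 123 and 141. Neither gene was near 0 in the region where Trp63 was low, and both were at most 3.14 CPM in E14 small intestine. Pax9, a pharyngeal and oesophageal paired-box factor, and Tfap2a, an AP-2 factor, missed the threshold at 10.2 and 10.5 CPM against 0.776 and 0.338 (edgeR's adjusted p 0.0808) and at 1.58 and 2.35 against 0.0706 and 0.113 (edgeR's adjusted p 0.0585). Both passed it in those 2 alternatives (0.000457 and 0.0035 for Pax9, 0.00314 and 0.018 for Tfap2a), and Tfap2a also with a minimum count of 30 (0.0414) and with DESeq2 (0.0212). Hes2, Irx3, Tfap2c and Zfp750 were also called, and each lost its call without 1 or more libraries (the highest edgeR's adjusted p was 0.146 for Hes2, 0.116 for Irx3, 0.0941 for Tfap2c and 0.108 for Zfp750). The count of 9 fell to 5 without hindstomach replicate 1 and to 4 without hindstomach replicate 2, and was 8 without either forestomach library. It was 15 without the E12 libraries and 16 with only the groups compared.

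Keratins of stratified epithelium and the parts of desmosomes and hemidesmosomes were called in 1 direction only. Of 24 tested, 16 were called higher in forestomach and 0 higher in hindstomach (66.7%), with a median log2 fold change of 3.76. Krt5, the basal-layer keratin, was at 352 and 380 CPM in forestomach and 2.36 and 2.78 in hindstomach, a log2 fold change of 7.15 (SE 0.91, edgeR's adjusted p 2.21e-05). Its partner Krt14 stood at 2.91 and 2.49 CPM in forestomach, with 1 count in hindstomach. Keratins of suprabasal oesophageal cells separated too, Krt4 at 5.52 and 8.31 CPM against 0.459 and 0.338 and Krt13 at 3.81 and 5.39 against 0 and 0.0376. The epidermal keratins Krt1 and Krt10 were not called, though Krt1 was when only the groups compared were fitted (1.72, edgeR's adjusted p 0.00584).

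Among adhesion genes, Perp, a desmosomal target of p63, was at 534 and 552 CPM against 35.7 and 35.7 (log2 fold change 3.93, SE 0.34, edgeR's adjusted p 1.27e-07), and the plakophilin gene Pkp1 at 51.2 and 37.3 against 0.318 and 0.0752 (7.76). Desmoplakin (Dsp) and the integrin gene Itgb4 were shared but higher in forestomach, by 1.43 and 1.94, and Lama3, a chain of the anchoring laminin, by 4.50. Jup and Itga6 had adjusted p under 0.05 and log2 fold changes under 1 (0.85 and 0.435). Jup passed the fold minimum without hindstomach replicate 2 (1.03). Leaving out 1 library gave 12 to 14 called genes. Krt14 lost its call without forestomach replicate 1 (edgeR's adjusted p 0.0671), hindstomach replicate 1 (0.127) and hindstomach replicate 2 (0.149).

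Genes of the cornified envelope, the protein shell of terminally differentiated squamous cells, were called in both directions. Of 17 tested, 4 were called higher in forestomach and 1 higher in hindstomach (29.4%), with a median of 1.46, or 0.95 with genes at 0 counts in a region set to their bound. Those called were Tgm1, the transglutaminase that cross-links the envelope, the plakin gene Ppl, the surface protein gene Lypd3 and the 14-3-3 gene Sfn. Tgm1 stood at 93.5 and 103 CPM in forestomach and 0.706 and 1.28 in hindstomach, a log2 fold change of 6.63 (SE 0.74, edgeR's adjusted p 3.89e-06). The plakin gene Evpl was well covered but not called, at 72.0 and 75.9 CPM against 25.6 and 28.3 (1.455, edgeR's adjusted p 0.143). For most other genes of the list a difference was not detectable at this depth. Cnfn and Calml3 had 0 counts in all 4 libraries, and Lor and Ivl were at most 0.506 CPM in any of them. Krtdap, Csta1, Ly6d, Sprr3, Tgm3 and Crct1 were low too, at most 0.578 CPM in any library, and were not called. The median of the list includes all of these. Sprr1a went the other way, at 0.941 and 1.08 CPM in forestomach and 6.53 and 6.17 in hindstomach (-2.64, SE 0.49, edgeR's adjusted p 0.00112).

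Transcription factors of glandular endoderm were called mostly higher in hindstomach. Of 27 tested, 15 were called higher in hindstomach, 2 higher in forestomach (63% in all) and 10 were not called, with a median of -2.27. Gata4 was at 55.7 and 58.1 CPM in forestomach and 358 and 338 in hindstomach, a log2 fold change of -2.61 (SE 0.22, edgeR's adjusted p 1.16e-07), so it was lower but not absent in forestomach. Gata6 followed at 16.6 and 19.6 against 81.6 and 95.2 (-2.29). Hnf4a, a nuclear receptor of digestive epithelium, was at 13.5 and 17.1 against 118 and 117 (-2.94, SE 0.37, edgeR's adjusted p 1.55e-05), and its paralogue Hnf4g differed by -2.27.

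Several homeobox factors differed more widely. Pdx1, which marks antrum, duodenum and pancreas, was at 1.67 and 3.69 CPM in forestomach and 32.6 and 31.4 in hindstomach (-3.56, SE 0.46, edgeR's adjusted p 2.85e-05). Nkx6-2 was at 0.128 and 0.0723 against 48.5 and 48.7 (-8.88), and Onecut2, a cut-homeobox factor, at 0.171 and 0.0362 against 18.1 and 16.2 (-7.37). The pioneer factors Foxa1 and Foxa2 were not called, at 311 and 345 CPM against 367 and 423 and at 94.1 and 91.3 against 74.8 and 82.9. Those higher in forestomach were Klf4, a zinc finger factor of differentiating epithelia, at 82.9 and 88.5 CPM against 25.8 and 33.0 (1.54), and the forkhead gene Foxq1 at 292 and 325 against 99.3 and 108 (1.58). Leaving out 1 library gave 13 to 15 genes higher in hindstomach and 2 higher in forestomach each time.

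Genes of gastric differentiation were already higher in hindstomach at E14 where they were called. Of 27 gastric differentiation genes tested, 13 were called higher in hindstomach and 0 higher in forestomach (48.1%), with a median of -2.71, or -2.26 with bounds. Genes of mucous and junctional function were among them. Cldn18 was at 13.4 and 13.1 CPM in forestomach and 300 and 262 in hindstomach (-4.41, SE 0.33, edgeR's adjusted p 5.15e-08), the mucin gene Muc1 at 18.9 and 22.5 against 134 and 137 (-2.71), the annexin gene Anxa10 at 0.428 and 0.181 against 38.2 and 40.5 (-7.03) and Agr2, a disulfide isomerase needed for mucin folding, at 1.24 and 0.723 against 117 and 125 (-6.96). The surface mucin gene Muc5ac stood at 2.95 and 1.63 CPM against 27.1 and 24.3 (-3.50).

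Chief cell and acid pump genes differed from one another. Pgc, the gene of pepsinogen C, was at 0.214 and 0.687 CPM in forestomach and 5.89 and 7.75 in hindstomach (-3.85, SE 0.46, edgeR's adjusted p 1.23e-05), while the proton pump genes Atp4a and Atp4b were not called, the latter at 9.84 and 12.1 against 7.87 and 8.05. The neonatal milk-clotting enzyme gene Cym was not called, at 1270 and 1254 CPM in forestomach and 1063 and 1130 in hindstomach, against 16.1 and 13.7 in small intestine. Leaving out 1 library gave 9 or 10 called genes.

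Enteroendocrine genes were higher in hindstomach from the progenitor factor to hormones. Of 28 tested, 20 were called higher in hindstomach and 0 higher in forestomach (71.4%), with a median of -3.0, or -2.96 with bounds. Neurog3, the factor that starts endocrine fate, was at 17.5 and 14.8 CPM in forestomach and 91.0 and 88.7 in hindstomach (-2.48, SE 0.54, edgeR's adjusted p 0.0044). Nkx2-2, a later endocrine factor, was at 4.66 and 5.21 against 38.7 and 40.2 (-3.0). The granule gene Chgb was at 42.0 and 48.0 CPM against 353 and 366 (-3.0, SE 0.59, edgeR's adjusted p 0.00163). Among hormone genes of the list, Gcg (glucagon) was at 14.8 and 11.5 against 174 and 190 (-3.79), and Ghrl (ghrelin) stood at 1.97 and 1.59 against 13.1 and 12 (-2.81). Sst (somatostatin) was at most 0.752 CPM in any library and was not called, but was when only the groups compared were fitted (edgeR's adjusted p 0.0196).

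The count of 20 fell to 11 without forestomach replicate 1 and to 8 without forestomach replicate 2, and was 15 without either hindstomach library. Neurog3 lost its call without forestomach replicate 2 (edgeR's adjusted p 0.0642) and Ghrl without either forestomach library (0.0531 and 0.0748), while Gcg, Chgb and Nkx2-2 kept theirs in each case. In bulk samples, fewer cells of a type and less RNA per cell cannot be told apart, which holds for these genes and for all that follow. Neuronal genes shared with endocrine cells moved with them. Of 12 neural and neural crest markers, 4 were called higher in hindstomach (33.3%, against 8.46% of all genes tested), Ret, Elavl3, Tubb3 and Stmn2. The sum over the 12 was 16.2 and 16.9 CPM in forestomach against 54.3 and 54.4 in hindstomach. The neural crest factor Sox10 was at most 1.69 CPM and not called, but was without the E12 libraries (edgeR's adjusted p 0.0376). Elavl3, Ret and Tubb3 each lost the call without 1 or more libraries (edgeR's adjusted p up to 0.222, 0.191 and 0.0854), and 1 of the 4 was left called without either forestomach library. The part of these genes in the endocrine result was not tested.

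Genes typical of neighbouring endodermal organs were called mostly higher in hindstomach, and most of them were not called. Of 23 intestinal genes, 9 were called higher in hindstomach and 0 higher in forestomach (39.1%), of 27 pancreatic genes 8 and 1 (33.3%), and of 15 liver genes 5 and 0 (33.3%). In the intestinal list, Vil1, the brush border protein villin, was at 1.63 and 2.10 CPM in forestomach and 27.7 and 32.3 in hindstomach (-4.0, SE 0.30, edgeR's adjusted p 5.26e-08), and the homeobox gene Isx at 0.0428 and 0 against 11.7 and 12.5. Hindstomach stayed well below E14 small intestine in these, where Vil1 was at 147 and 151 CPM, Isx at 184 and 177 and Cdx2 at 123 and 152 against 12.7 and 6.2 in hindstomach. The intestinal stem cell receptor gene Lgr5 was not called, at 13.2 and 10.4 CPM against 20.7 and 21. Cdx1 missed the threshold on the other side, at 1.58 and 2.64 CPM in forestomach against 0.353 and 0.338 (2.605, edgeR's adjusted p 0.0565). Muc13 also had a positive value but was not called (1.95, edgeR's adjusted p 0.442). With DESeq2, with no filter, with only the groups compared or without the E12 libraries, 1 intestinal gene was called higher in forestomach.

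In the pancreatic list, the acinar enzyme genes Clps (colipase) and Cela1 (an elastase) were at 21.3 and 20.4 CPM against 144 and 145 and at 5.48 and 5.21 against 36.4 and 36.4 (-2.79 and -2.77), and the acinar factor gene Ptf1a was not called (edgeR's adjusted p 0.0798), but was with DESeq2 (0.0392), with only the groups compared (0.000188) and without the E12 libraries (0.0275). The 1 pancreatic gene higher in forestomach was the homeobox gene Mnx1, at 52.2 and 49.1 CPM against 13.5 and 13.3 (1.92, SE 0.35, edgeR's adjusted p 0.000692). In the liver list, the plasma protein genes Ambp and Ttr were at 26.2 and 24.9 CPM against 299 and 293 (-3.54) and at 9.93 and 11.6 against 88.2 and 90.1 (-3.05). These levels were close to those of small intestine, where Ambp was at 278 and 242 and Ttr at 80.7 and 63.7. Without forestomach replicate 2, 5 pancreatic genes were called higher in hindstomach, and 6 or 7 without any 1 of the others, whereas 19 were called with only the groups compared.

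Small intestine at E14 gave a further level for each called gene. For the 491 genes higher in forestomach, the mean of the small intestine libraries was below hindstomach for 239 (48.7%), between the regions for 233 and above forestomach for 19. For the 968 genes higher in hindstomach, small intestine was above hindstomach for 326 (33.7%), between for 558 and below forestomach for 84.

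Simple epithelial keratins, the filament pairs of columnar cells, were present in both regions. Of 7 tested, Krt18 alone was called (14.3%, against 8.46% of all genes tested). It stood at 354 and 354 CPM in forestomach and 712 and 736 in hindstomach (-1.03, SE 0.16, edgeR's adjusted p 0.000181). Its partner Krt8 was not called, at 987 and 1023 against 1375 and 1415. Krt19 had a log2 fold change of 0.85 (edgeR's adjusted p 0.00939), under the fold minimum. Of 19 claudins, the strands of tight junctions, 4 were called higher in hindstomach and 0 higher in forestomach (21.1%), namely Cldn18, Cldn3, Cldn9 and Cldn23. Occludin (Ocln), another strand protein, went the same way, at 87.4 and 108 CPM against 231 and 233 (-1.25).

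**Figure D3:**
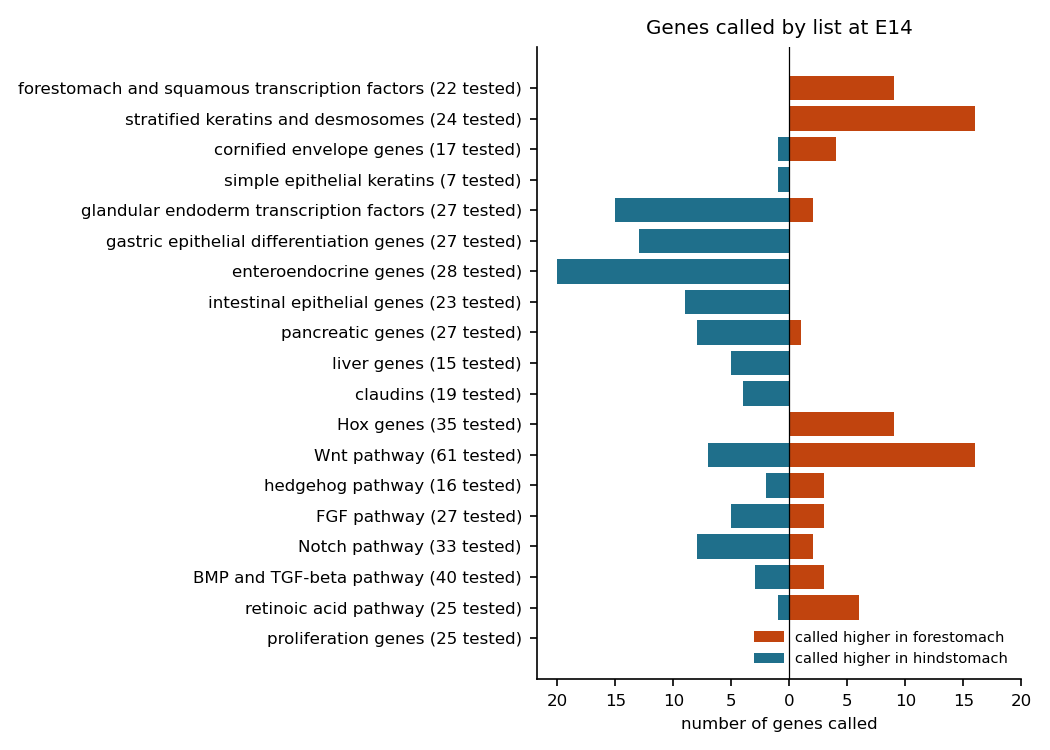
Number of genes called at E14 in each of 19 lists, with genes higher in forestomach to the right and genes higher in hindstomach to the left. The 16 stratified keratin and desmosome genes and the 20 enteroendocrine genes are the longest one-sided bars. Of 25 proliferation genes 0 were called, against 8.46% of all genes tested.

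The hedgehog ligands divided between the regions. Shh (Sonic hedgehog) was at 208 and 197 CPM in forestomach and 42.8 and 51.7 in hindstomach, a log2 fold change of 2.10 (SE 0.27, edgeR's adjusted p 1.69e-05). Ihh (Indian hedgehog) was the reverse, at 24.7 and 32.8 CPM against 224 and 254 (-3.05, SE 0.19, edgeR's adjusted p 2.59e-09). Of 16 pathway genes tested, 3 were called higher in forestomach and 2 higher in hindstomach (31.2%). Of the co-receptors, Boc was higher in forestomach and Gas1 in hindstomach (2.16 and -2.07), and Gli3, a transcriptional effector, was at 39.2 and 41.9 CPM against 9.81 and 9.10 (2.10). The receptor gene Ptch1 and the effector Gli1, both targets of the pathway, were not called, at 28.7 and 26.9 against 19.5 and 20.2 and at 0.898 and 2.24 against 0.353 and 0.414. Gli1 was called without the E12 libraries (edgeR's adjusted p 0.037). Boc lost its call without hindstomach replicate 2 (edgeR's adjusted p 0.08).

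Wnt pathway genes were called more often in forestomach. Of 61 tested, 16 were called higher in forestomach and 7 higher in hindstomach (37.7%), with a median of 0.42. Among ligands, Wnt4 was at 64.3 and 59.4 CPM in forestomach and 3.39 and 2.75 in hindstomach (4.33, SE 0.53, edgeR's adjusted p 1.16e-05) and Wnt5b at 37.7 and 41.7 against 5.50 and 5.90 (2.80). Wnt6 and Wnt10a were near the floor in hindstomach. Wnt9b and Wnt16 were called higher in hindstomach, with 0 counts in both forestomach libraries, at 0.635 and 0.489 CPM (at least 4.75-fold) and at 0.388 and 0.79 CPM (at least 4.97-fold). Both lost the call without either forestomach library and without hindstomach replicate 2 (edgeR's adjusted p 0.064 to 0.158), and Wnt9b also without hindstomach replicate 1 (0.0864). Receptor genes went both ways, with Fzd1, Fzd6 and Fzd10 higher in forestomach and Fzd4, Fzd5, Ror1 and Ror2 higher in hindstomach. Fzd5 was at 6.16 and 4.23 CPM against 42.8 and 35.2 (-2.91, SE 0.25, edgeR's adjusted p 1.57e-07).

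Several targets and feedback inhibitors of canonical Wnt signalling were on the forestomach side. Notum, a secreted enzyme that inactivates Wnt ligands, was at 174 and 176 CPM in forestomach and 7.13 and 7.07 in hindstomach (4.62, SE 0.87, edgeR's adjusted p 0.000973). The transcription factor genes Lef1, Sp5 and Tcf7 were at 13.1 and 13.6 against 0.423 and 0.376 (5.05), at 53.4 and 54.9 against 4.06 and 4.36 (3.68) and at 23.1 and 20.9 against 5.22 and 6.13 (1.95). The ubiquitin ligase gene Rnf43, which removes Wnt receptors, was at 162 and 149 against 40.2 and 35.2 (2.04), and Axin2, the classic feedback target, at 19.2 and 17 against 4.02 and 4.29 (2.12). The secreted antagonist gene Sfrp5 was the reverse, with 1 and 2 counts in forestomach and 46.7 and 48.8 CPM in hindstomach, a ratio of 812 (95% counting interval 278 to 3940). The forestomach count fell from 16 to 9 without hindstomach replicate 1 and was 12 to 14 without any 1 of the others, and the hindstomach count was 4 without either forestomach library. Axin2 lost its call without either hindstomach library (edgeR's adjusted p 0.085 and 0.0701), Wnt6 likewise (0.0592 and 0.0984), Fzd1 without replicate 1 of either region (0.0918 for forestomach, 0.123 for hindstomach), Fzd6 likewise (0.0573 and 0.0514), Fzd10 without hindstomach replicate 2 (0.0661), and Fzd4 without forestomach replicate 1 (0.104), forestomach replicate 2 (0.08) and hindstomach replicate 1 (0.0547).

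FGF pathway genes were called in both directions. The receptor genes Fgfr2 and Fgfr3 were higher in forestomach, Fgfr2 at 822 and 887 CPM against 182 and 175 (2.26, SE 0.15, edgeR's adjusted p 5.12e-09) and Fgfr3 at 204 and 205 against 79.2 and 71.5 (1.44). Fgfr4 was higher in hindstomach, at 16.7 and 19.3 against 61.7 and 64.3 (-1.80). The ETS factor genes Etv4 and Etv1 and the feedback gene Spry4, which FGF signalling induces in many tissues, and the membrane protein gene Flrt3 were higher in hindstomach, Etv4 at 2.82 and 2.78 CPM against 34.3 and 35.4 (-3.63, SE 0.34, edgeR's adjusted p 3.23e-07). Other feedback genes were not called, among them Dusp6, at 38.5 and 35.2 CPM against 71.2 and 74.3 (-0.98, edgeR's adjusted p 0.00154), and Spry1, at 68.3 and 67.7 against 69.5 and 68.4. Dusp6 passed the fold minimum without forestomach replicate 1 (-1.045) and without hindstomach replicate 1 (-1.01). Over the list, 3 of 27 tested genes were higher in forestomach and 5 higher in hindstomach (29.6%). Spry4 lost its call without forestomach replicate 1 (edgeR's adjusted p 0.205) and without either hindstomach library (0.0868 and 0.0596).

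Of 33 Notch pathway genes tested, 8 were called higher in hindstomach and 2 higher in forestomach (30.3%). The ligands split as the hedgehog ligands did. Jag2 was at 74.5 and 108 CPM in forestomach and 5.12 and 7.56 in hindstomach (3.84, SE 0.78, edgeR's adjusted p 0.00205), whereas Dll1 and Dll4, ligands of secretory precursors and vessels, were at 3.85 and 5.10 against 23.7 and 27 (-2.50) and at 2.31 and 1.19 against 12.3 and 11 (-2.74). The atypical ligand genes Dlk1 and Dlk2 were opposite too, Dlk1 at 52.8 and 51.6 CPM against 336 and 374 (-2.77) and Dlk2 at 15.3 and 14.9 against 0.247 and 0.263 (5.86). The receptors Notch1 to Notch4 and the target gene Hes1 were not called, but Notch4 was when only the groups compared were fitted (1.21, edgeR's adjusted p 0.0404). Without forestomach replicate 1, 4 Notch genes were called higher in hindstomach, and 5 or 6 without any 1 of the others. Jag2 lost its call without hindstomach replicate 1 (edgeR's adjusted p 0.0517).

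Of 40 BMP and TGF-beta genes tested, 3 were called in each direction (15%). Id genes were called in both directions. They are inhibitors of basic helix-loop-helix factors that BMP signalling induces in many tissues. Id3 was at 390 and 354 CPM in forestomach and 94.9 and 93.3 in hindstomach (1.98, SE 0.35, edgeR's adjusted p 0.000595), and Id4 at 6.76 and 5.93 against 108 and 106 (-4.08, SE 0.33, edgeR's adjusted p 7.45e-08). The ligand gene Bmp4 was low, at 2.05 and 3.43 CPM against 0.67 and 0.263, and the receptor gene Tgfbr2 was at 2.95 and 4.08 against 18.9 and 19.8 (-2.45). Without forestomach replicate 2 or hindstomach replicate 2, 1 gene of the list was called higher in forestomach. Bmp4 lost its call without forestomach replicate 2 (edgeR's adjusted p 0.121) and without hindstomach replicate 2 (0.202).

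Retinoic acid genes were called mostly on the forestomach side. Of 25 tested, 6 were called higher in forestomach and 1 higher in hindstomach (28%). Among them were the receptor genes Rarb and Rarg, the binding protein genes Crabp2 and Fabp5 and the retinal reductase gene Dhrs3. Rarb, itself a target of retinoic acid, was at 121 and 132 CPM in forestomach and 31.1 and 28.5 in hindstomach (2.08, SE 0.45, edgeR's adjusted p 0.00333), Rarg at 87.1 and 102 against 15.1 and 16.8 (2.57) and Dhrs3 at 140 and 147 against 42.0 and 40.4 (1.80). Rbp4, the plasma carrier of retinol, was higher in hindstomach (-1.56). Rarb lost its call without hindstomach replicate 2 (edgeR's adjusted p 0.0525).

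Hox genes, whose order along the chromosome follows their order along the body axis, were higher in forestomach wherever they were called. Of 35 tested, 9 were called higher in forestomach and 0 higher in hindstomach (25.7%). HoxC genes were among them, with Hoxc5 at 128 and 129 CPM in forestomach and 3.81 and 4.25 in hindstomach (4.99, SE 0.84, edgeR's adjusted p 0.000643), Hoxc4 at 56.0 and 48.7 against 9.0 and 6.2 (2.78), Hoxc6 at 21.9 and 23.9 against 0.0353 and 0.113 (8.19, SE 1.40, edgeR's adjusted p 0.000596) and Hoxc8 at 5.30 and 3.87 against 0 and 0.0752, a ratio of 124 (95% counting interval 34.0 to 1030). Hoxa3, Hoxa4, Hoxa5, Hoxa7 and Hoxb2 completed the 9, with Hoxa3 at 14.6 and 13.8 against 4.23 and 4.17. Hoxc9 had 0 counts in all 4 libraries. The count was 5 without forestomach replicate 1, hindstomach replicate 1 or hindstomach replicate 2, and 8 without forestomach replicate 2, and the HoxC genes Hoxc4, Hoxc5, Hoxc6 and Hoxc8 kept their calls in each case. Hoxa3 lost its call without each of the 4 libraries (edgeR's adjusted p 0.0703 to 0.146), and so did Hoxa4 (0.066 to 0.279). Among the signalling lists, fitting only the groups compared moved some counts by more than 1.5 times, to 3 higher in forestomach and 4 higher in hindstomach for hedgehog, 5 and 5 for BMP and TGF-beta, 3 and 8 for FGF, 4 and 10 for Notch and 8 and 3 for retinoic acid.

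**Figure D4:**
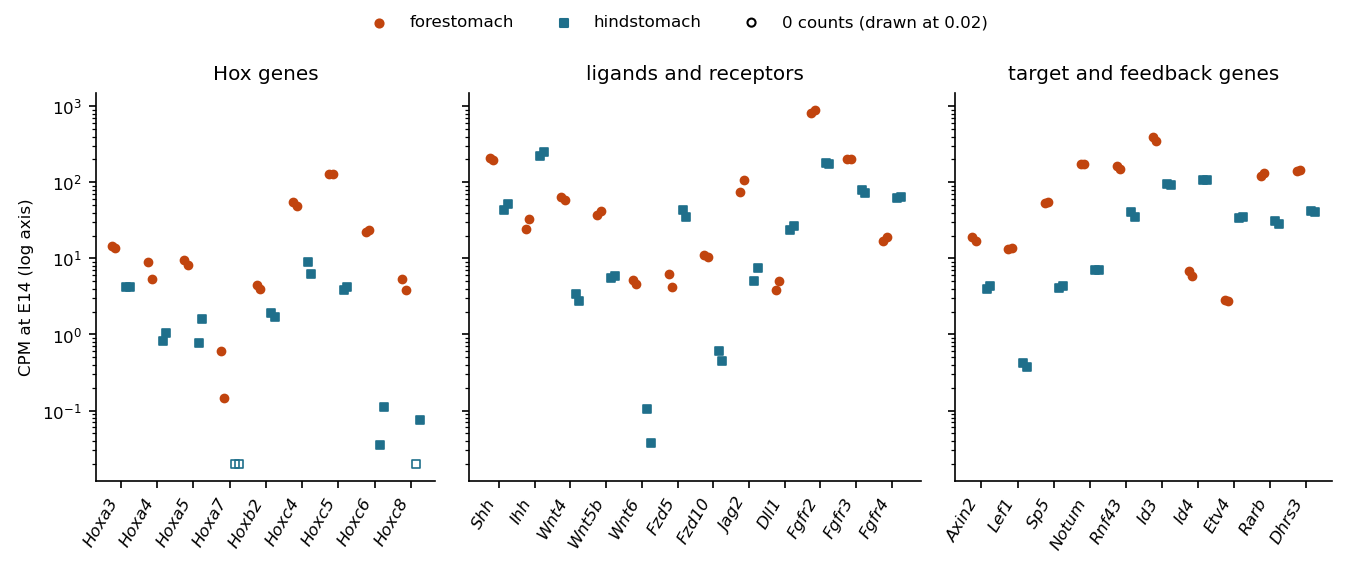
CPM at E14, on a log axis, of the 9 called Hox genes and of 22 signalling genes, 1 point per library, with open points for 0 counts drawn at 0.02 CPM. The points of the regions do not overlap for these genes, which holds for every called gene and for 61.8% of all genes tested. Shh and Ihh, Jag2 and Dll1, and Fgfr2 and Fgfr4 lie in opposite order.

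No proliferation gene was called between the regions. Of 25 tested, 0 were called by edgeR or by DESeq2, against the 8.46% called of all genes tested in edgeR. At that share a list of this size would hold few called genes, so the count says little of proliferation. In edgeR 2 had an unadjusted p under 0.05, and the median log2 fold change was 0.15. Markers of other cells were measured on both sides. The summed mesenchyme markers were 178 CPM in both forestomach libraries and 137 and 148 in hindstomach. Of 21 tested, 3 were called higher in forestomach (Col5a1, Dcn and Zeb2) and 2 higher in hindstomach (Vim and Postn). That is 23.8%, against 8.46% of all genes tested. Zeb2 lost its call without forestomach replicate 2 (edgeR's adjusted p 0.121) and without either hindstomach library (0.146 and 0.158). Sums were 31.4 and 35.0 against 17 and 16.7 CPM for smooth muscle, 34.1 and 31.4 against 17.1 and 17.6 for blood, 18.6 and 21.5 against 14.8 and 15.6 for immune cells and 18 and 18.7 against 30.8 and 31.2 for endothelium. The summed mesothelium markers were 788 and 786 CPM in forestomach and 486 and 483 in hindstomach, of which the keratin gene Krt19, also an epithelial gene, made up 751 and 751 and 419 and 412. Of those 7 genes, Upk1b was called higher in forestomach and Msln higher in hindstomach, and neither was called without either forestomach library, nor Upk1b without either hindstomach library (edgeR's adjusted p up to 0.232 for Upk1b and 0.0759 for Msln). The calls of Upk1b and Msln are 28.6% of that list, against 8.46% of all genes tested. Of the defining genes, Col1a1 was at 15.6 and 17.1 against 8.96 and 12.3 CPM, Ptprc at most 0.414 and Pecam1 at most 0.865. Their part in the results above was not tested.

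The regional difference at E14 was then set against the difference between the same regions at E16, where 20.1% of genes were called. Of the 491 genes higher in forestomach at E14, 225 (45.8%, and 20.8% of the 1081 at E16) were called the same way at E16 and 20 the opposite way. Of the 968 higher in hindstomach, 522 (53.9%, and 21.9% of the 2383 at E16) were called the same way and 52 the opposite way. The difference between the differences was called for 2032 genes (11.8%), 63.1% of them with a higher value at E14. With RLE scaling that share was 49.5% and with DESeq2 50.0%, so its direction over all genes rests on the scaling.

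For Trp63 and Krt5 the difference between the stages was not called. The log2 fold change of Trp63 was 5.88 at E14 and 5.04 at E16 (edgeR's adjusted p of the difference 0.539), and that of Krt5 7.15 and 6.32 (0.681), with Krt5 at 1735 and 1356 CPM in forestomach at E16. Shh changed sides. It stood at 1.70 and 2.45 CPM in forestomach and 12.7 and 13 in hindstomach at E16, a log2 fold change of -2.62, and the difference from E14 was 4.72 (SE 0.46, edgeR's adjusted p 1.08e-06). Foxq1 also changed sides, to 139 and 119 CPM against 511 and 487 at E16 (difference 3.53, SE 0.28, edgeR's adjusted p 1.23e-07), and so did Mnx1 (difference 3.71, SE 0.56, edgeR's adjusted p 0.000116). Epcam itself stood at 137 and 112 CPM in the E16 forestomach libraries and at 421 and 400 in those of E16 hindstomach. The part of this difference in the changes of side was not tested.

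Id4 and Dlk1, higher in hindstomach at E14, were not called at E16. Id4 was at 77.8 and 84.5 CPM in forestomach and 46.1 and 44.2 in hindstomach at E16 (difference -4.92, SE 0.44, edgeR's adjusted p 3.96e-07), and Dlk1 at 877 and 824 against 557 and 581 (-3.35, SE 0.30, edgeR's adjusted p 6.59e-07). By the rule for named genes, the largest positive differences were those of the trypsin gene Prss2 (10.61, with its E14 call lost without forestomach replicate 2, edgeR's adjusted p 0.102), Vil1 (9.39) and the microvillus gene Cdhr2 (9.05), which had 0 counts in both E16 forestomach libraries, so these fitted differences depend on the floor. The largest negative ones were those of 2310042E22Rik (-11.39), Galnt6 (-11.00) and Agt, the angiotensinogen gene (-9.15). Galnt6 and 2310042E22Rik had 0 counts in both E14 forestomach libraries, so their differences depend on the floor too, and 2310042E22Rik lost its E14 call without hindstomach replicate 2 (edgeR's adjusted p 0.173) and without either forestomach library (0.14 and 0.149). The general epithelial genes moved with this comparison, with Cdh1 at 102 and 91.7 CPM in E16 forestomach against 510 and 483 in E16 hindstomach (difference 2.44, SE 0.18, edgeR's adjusted p 6.3e-08). Beside them stood the mesenchyme, muscle and blood markers of the E16 libraries. Summed muscle markers were 16300 and 21000 CPM in E16 forestomach and 1850 and 1880 in E16 hindstomach. Their part in the E16 results was not tested.

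**Figure D5:**
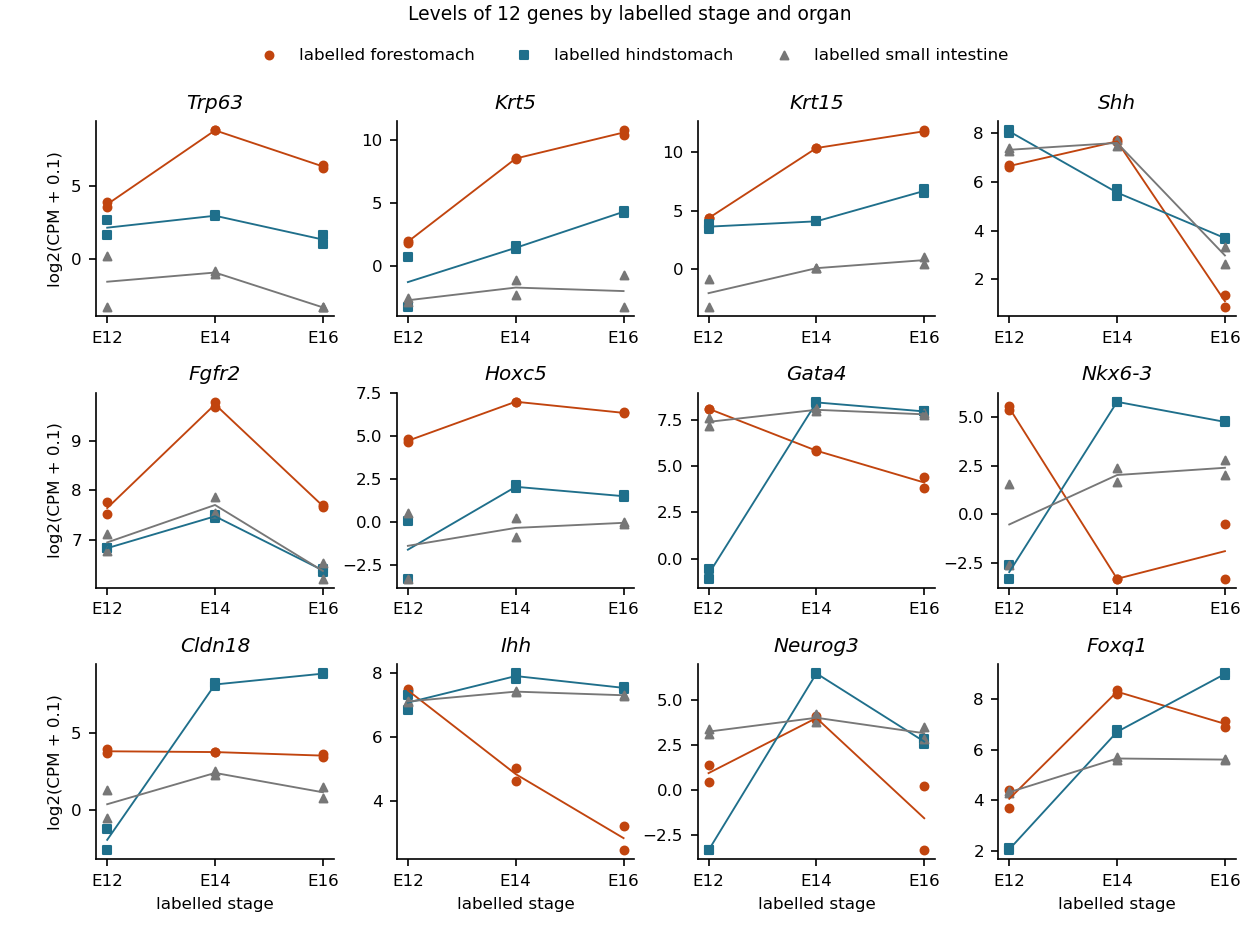
Log2(CPM + 0.1) of 12 genes in libraries labelled E12, E14 and E16, 1 point per library and a line through the means of 2 libraries, for labelled forestomach, hindstomach and small intestine. Trp63, Krt5, Krt15 and Fgfr2 are higher in forestomach at E14 than at E12, Shh and Foxq1 change order between E14 and E16, and Gata4 and Nkx6-3 are high in the libraries labelled E12 forestomach and near the floor in those labelled E12 hindstomach. At E16, Epcam was at 137 and 112 CPM in forestomach and at 421 and 400 in hindstomach.

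Set against the libraries labelled E12, the regional difference was called as different for 1646 genes (9.55%). Between the libraries labelled E12 themselves, 7.11% of genes were called. Of the 491 genes higher in forestomach at E14, 41 (8.35%, and 8.4% of the 488 at E12) were called the same way between the libraries labelled E12 and 58 the opposite way, and of the 968 higher in hindstomach, 141 (14.6%, and 19.1% of 738) the same way and 202 the opposite way. All of these rest on the E12 libraries whose Gata4, Nkx6-2 and Cdx2 levels go against their labels. The largest positive differences were those of Slc47a1, Krt6a and the water and glycerol channel gene Aqp3, and the largest negative ones those of Nkx6-3, Nkx6-2 and Sfrp5. Aqp3 had 0 counts in both libraries labelled E12 forestomach and stood at 32.7 and 37.8 CPM in E14 forestomach against 2.82 and 3.20 in E14 hindstomach. Trp63 stood at 15.1 and 12 CPM in the libraries labelled E12 forestomach and at 455 and 458 at E14, Krt5 at 3.45 and 3.83 and then 352 and 380, and Krt15 at 20.7 and 19.9 and then 1302 and 1369. Hoxc5 was higher in labelled forestomach at each of the 3 labelled stages, with log2 fold changes of 5.79, 4.99 and 4.91.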

How the data were processed

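The values are read counts per gene in 1 table deposited by the authors, with no normalization. The submitters' processing notes name STAR 2.5.3a, Bowtie2, HTSeq, MACS2 and the build mm9 without their roles. The annotation and the strand setting are not given in the sources used here. Columns were matched to samples by name (2 that match no sample and 4 adult columns were not used). In R 4.3.3, edgeR 4.0.16 with limma 3.58.1 fitted quasi-likelihood models to 27 embryonic libraries in 13 groups (TMM scaling, filterByExpr with a minimum count of 10, 14 residual degrees of freedom), keeping 17239 of 24015 genes. The fit held WT small intestine at E18 and Cdx2-/- small intestine (deleted at E10, E13 or E15), besides the WT stages E12 to E16. Calls need a Benjamini-Hochberg adjusted p under 0.05 and a log2 fold change of at least 1 in size. Standard errors were derived from the fold change and F. Where a region had 0 counts, the fold is against 3 counts per library. Where it had 1 to 3 counts, the ratio has a 95% counting interval, which covers counting error only. CPM values use TMM-scaled library sizes.

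The difference between stages was tested as an interaction in the same fit. Besides list members, named genes were, per direction, the 10 called genes with the largest folds, the 5 with the largest CPM differences and, over genes called at E14, the 3 with the largest interactions, none overlapping between groups and each averaging 2 or more in log2 CPM. Members and lists were chosen with earlier results of these data known. On simulated data for this comparison (16958 genes), 21 of 67 genes changed 2-fold were recovered (31.3%), 56 of 67 at 4-fold (83.6%) and 57 of 66 at 8-fold (86.4%), with 1 false call. The changed genes were drawn from those averaging over 1 CPM in hindstomach, and counts were simulated with the fitted spread. Recovery was thus not measured for genes of lower level. Alternatives were RLE scaling, no filter, a minimum count of 30, DESeq2 1.42.0, a fit of only the groups compared, a replicate block and leaving out libraries. The chromatin samples of the series were not analysed here.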

Additional observations from a re-analysis of the deposited data

Results flagged for a closer look

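The regional difference at E14 differed from that between the libraries labelled E16 for 2032 genes, and from that between the libraries labelled E12 for 1646, each by an interaction term in edgeR. Among the named genes, the log2 difference E14 minus E16 was positive for Serpinb5 (4.13), Col17a1 (3.69), Cbr2 (3.50), Pkp1 (4.34), Igfbp5 (1.88) and Aqp3 (1.90), all higher in forestomach at E14. It was positive also for the hindstomach genes Serpina6 (2.85), Krt18 (1.98), Prss2 (10.61), Vil1 (9.39) and Cdhr2 (9.05). It was negative for Galnt6 (-11.00), Ccl20 (-7.77), Spock1 (-4.73), 2310042E22Rik (-11.39) and Agt (-9.15). The E16 libraries of both regions stood apart from those of E14 in Epcam and in mesenchyme, muscle and blood markers, forestomach more than hindstomach. The part of these markers was not tested.

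Against the libraries labelled E12, the log2 difference was positive for Slc47a1 (16.66), Krt6a (13.59), Krt5 (4.91), Krt15 (5.59), Fgfr2 (1.45) and Aqp3 (11.40). It was negative for Nkx6-3 (-23.66), Galnt6 (-14.05), Ms4a8a (-18.83), Nepn (-16.62), Tm4sf20 (-11.58), Ccl20 (-11.22), Eps8l3 (-14.83), Spock1 (-14.11), Nkx6-2 (-20.95), Sfrp5 (-19.45) and Cpa1 (-16.77). Other negative differences were those of Peg3 (-2.88), Gstm1 (-4.13), Serpina6 (-5.73), Krt18 (-1.86), Prss2 (-10.75), Cdhr2 (-5.17), 2310042E22Rik (-12.62) and Agt (-5.87). Where a group was at 0 or a few counts, the fitted value depends on the prior count. All rest on the libraries labelled E12, whose Gata4, Nkx6-2 and Cdx2 levels go against their labels.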

How the results depend on the processing

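The 1459 calls became 960 to 1127 when 1 of the 4 libraries was left out (960 without forestomach replicate 1, with 926 of the 1459 shared), those higher in forestomach 293 to 374 (293 without hindstomach replicate 1, 295 without hindstomach replicate 2) and those higher in hindstomach 594 to 753 (594 without forestomach replicate 1). No shared call was opposite in any alternative. Fitting only the groups compared gave 2233, of which 793 were higher in forestomach. The replicate block gave 1420, with 1354 shared; the replicate numbers did not pair the libraries (correlation of deviations 0.044). Of the values of single genes under the alternatives, 105 lost their call, 19 gained one, 2230 did neither and 4 changed sign. These were of 2 genes that were not called in any of the fits, Ivl at 1.66 without hindstomach replicate 2 (-2.467 without forestomach replicate 1) and Spry1 at 0.018 with RLE scaling and with DESeq2 and 0.002 with only the groups compared. Leaving out 1 library gave 1192 to 1415 genes for the difference from E12 (423 to 543 positive, 423 without hindstomach replicate 1, and 712 to 887 negative) and 1417 to 1972 for the difference from E16 (872 to 1361 positive, 538 to 627 negative). The negative genes of the latter, 750 in the report's fit, were 1138 with DESeq2, 1322 with only the groups compared and 1163 without the E12 libraries, an alternative chosen after seeing the data. Without the E12 libraries the E14 comparison gave 2143 calls. Of the simulated 2-fold changes, all in genes averaging over 1 CPM in hindstomach, 31.3% were recovered. A 2-fold change equals the fold minimum of a call, so estimates under it fail the rule whatever the number of libraries.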

Other observations

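Families of genes outside the lists were described as well, chosen after their values were seen, so their counts are descriptions only. Genes of detoxification and conjugation were called mostly higher in hindstomach. Of 19 glutathione S-transferases tested, 10 were higher in hindstomach and 0 higher in forestomach (52.6%, against 8.46% of all genes tested), among them Gsta3 (log2 fold change -2.58), Gstm1 (-3.51) and Gstt1 (-2.45). Of 5 genes of aldo-keto reductase family 1C, 4 were higher in hindstomach and 0 in forestomach (80.0%), and of 12 UDP-glucuronosyltransferases 6 and 2 (66.7%). Members of these families are alike in sequence, so reads may be split between them and single genes are uncertain. Of 42 ABC transporters, 7 were higher in hindstomach and 0 in forestomach (16.7%), and of 327 solute carriers 36 and 9 (13.8%).

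IGF-binding proteins, annexins, S100 genes and semaphorins were called in both directions. The shares called were 71.4%, 58.3%, 37.5% and 35.0% in that order, against 8.46% of all genes tested. Of 7 IGF-binding proteins, 4 were higher in forestomach and 1 in hindstomach. Of 12 annexins, 4 were higher in forestomach, with Anxa8 at 5.45 and Anxa1 at 2.43, and 3 in hindstomach, with Anxa10 at -7.03. Of 16 S100 genes, which encode small calcium-binding proteins, 4 were higher in forestomach, S100a14 at 4.02 and S100a10 at 3.20 among them, and 2 in hindstomach. Of 20 semaphorins, guidance ligands, 5 were higher in forestomach, led by Sema3d at 3.68, and 2 in hindstomach. Of 31 imprinted genes, expressed from 1 parental allele, 7 were higher in hindstomach and 0 in forestomach (22.6%), namely Peg3, Dlk1, Mest, Zim1, Peg10, Slc38a4 and Nap1l5. Without 1 or more libraries Peg10, Zim1 and Nap1l5 lost the call (the highest edgeR's adjusted p was 0.423, 0.066 and 0.133). Igf2, H19, Cdkn1c and Grb10 were not called.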
